A study of Mus musculus with 16 samples.

Results

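The prostaglandin synthesis enzymes described here are Ptgs1, Ptgs2, Ptges, Ptgis and Ptgds, 5 of the 16537 genes named on the array. Every probe annotated with one of these symbols was taken, 9 of 24040 in all. Transcripts had been measured in pericytes and in endothelial cells sorted from primary tumours of 67NR, a mouse mammary carcinoma line, with Illumina MouseWG-6 v2.0 bead arrays. All hosts were female BALB/c mice aged 6 to 8 weeks that carried the Ub-GFP transgene, which expresses green fluorescent protein throughout the body from a ubiquitin promoter. Tumours in the mammary fat pad were taken after 2 to 4 weeks, at a diameter averaging 10 mm, and cells were sorted without culture. The 4 groups, each of 4 arrays, were pericytes from endosialin wild-type tumours, pericytes from endosialin-knockout tumours, and endothelial cells from either genotype. Endosialin, the product of Cd248, is a transmembrane glycoprotein found on pericytes and fibroblasts. The labels used here do not describe the knockout allele, the markers of the sort or the number of mice behind an array. All p-values therefore measure only the spread between these samples.

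Prostaglandins are made in 3 steps. Phospholipases release arachidonic acid from membranes, the cyclooxygenases encoded by Ptgs1 and Ptgs2 turn it into the unstable intermediate prostaglandin H2, and terminal synthases convert that intermediate into the individual mediators. Ptgs1 is the constitutive cyclooxygenase and Ptgs2 the inducible one, raised by cytokines and growth factors in many cells. Ptges encodes the microsomal prostaglandin E synthase that is often induced together with Ptgs2, Ptgis the prostacyclin synthase of the vessel wall, and Ptgds the lipocalin-type prostaglandin D synthase. Prostacyclin relaxes vessels and restrains platelets, and prostaglandin E2 is known in tumours for its part in vessel growth and immune regulation.

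The sequences before the annotated starts of both cyclooxygenases and of Ptges are shown because the arrays separated Ptgs2 and Ptges from Ptgs1. They come from RefSeq on GRCm38.p6, where 4 of the 5 genes had an entry, all but Ptgis. Each run is the 250 bases before the 1 start given per gene in the promoter table used, read 5′ to 3′ on the gene's strand. The RefSeq gene models of Ptgs1, Ptges and Ptgds also reach upstream of these starts, and windows at other starts were not searched. Capitals mark matches to the motifs GGGCGG, the GC box, and TTGCGCA, a C/EBP-type sequence. The positions are chr1:150099781-150100030 on the plus strand for Ptgs2, chr2:30903298-30903547 on the minus strand for Ptges, and chr2:36230176-36230425 on the plus strand for Ptgs1.
Ptgs2: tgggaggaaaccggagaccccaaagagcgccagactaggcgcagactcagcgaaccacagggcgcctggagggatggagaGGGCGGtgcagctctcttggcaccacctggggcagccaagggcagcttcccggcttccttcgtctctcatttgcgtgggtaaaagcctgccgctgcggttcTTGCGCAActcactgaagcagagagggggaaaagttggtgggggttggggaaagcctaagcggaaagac
Ptges: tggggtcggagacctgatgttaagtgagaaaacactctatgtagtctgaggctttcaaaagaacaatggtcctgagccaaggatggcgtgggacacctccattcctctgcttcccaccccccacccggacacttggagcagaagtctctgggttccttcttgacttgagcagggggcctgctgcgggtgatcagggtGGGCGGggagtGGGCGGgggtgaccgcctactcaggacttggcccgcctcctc
Ptgs1: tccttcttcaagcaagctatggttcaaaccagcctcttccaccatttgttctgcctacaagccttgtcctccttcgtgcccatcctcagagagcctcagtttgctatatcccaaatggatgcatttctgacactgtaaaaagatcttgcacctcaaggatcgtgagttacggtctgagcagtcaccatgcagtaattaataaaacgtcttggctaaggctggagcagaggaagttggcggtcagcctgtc

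The search covered 300 bases of each gene, the 250 before the start and the 50 after it, on both strands. It also used TATAAA, the TATA box. Its remaining motifs were CACGTG, an E-box, and the core of a cyclic AMP response element, whose letters are ACGTCA. Ptgs2 held 1 GC box and 2 overlapping matches to the C/EBP-type sequence, which lie on opposite strands. Just after its start, at chr1:150100035-150100058 on the plus strand, the E-box and the response element core overlapped, and the capitals below mark both.
Ptgs2, after the start: tcaccactACGTCACGTGgagtcc
Ptges held 2 GC boxes and no match to the other 4 motifs, and neither Ptgs1 nor Ptgds held a match to any of the 5. Of 32851 such windows in the RefSeq table, 35.7% held the GC box, 2.02% the C/EBP-type sequence, 7.15% the E-box, 7.51% the response element core and 13.6% the TATA box. A match describes the letters of the window and is not a measured binding site.

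The deposited values are normalized log2 intensities, with array medians between 7.18 and 7.21 and lower quartiles between 6.92 and 6.96. Array replicates carry the numbers 1 to 4 of the labels, and values are listed in that order. Differences were tested with limma over 10426 genes with Benjamini-Hochberg adjustment at 0.05, after probes had been kept when they lay above the array median on at least 4 of the 16 arrays. Of the 9 probes, 5 were kept, and they stand for Ptgs2, Ptges and Ptgis. These 5 lay above the median on pericyte arrays and on 0 of the 8 endothelial arrays, so a higher level in pericytes was built into their selection. The probes of Ptgs1 and Ptgds were not kept and are described from a fit of all 24040 probes. Cd248 read 10.75 to 11.19 in wild-type pericytes, 6.96 to 7.21 in knockout pericytes and at most 7.44 in endothelial cells. Knockout pericyte arrays 2, 3 and 4 stood apart in keratinocyte markers, whose values are given with Ptgds, so the differences of the enzymes that rest on them are also given without them.

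Of the cyclooxygenases, Ptgs2 was the one with a clear level, and it lay in the pericytes of both genotypes. Its probe with the higher mean, ILMN_1231600, read 9.01, 9.18, 8.61 and 9.47 in wild-type pericytes and 9.07, 9.28, 9.18 and 9.09 in knockout pericytes. In endothelial cells it read 6.78, 6.93, 7.04 and 6.97 in wild type and 6.82, 6.97, 7.02 and 6.79 in knockout. All 8 pericyte arrays lay above all 8 endothelial arrays, which stayed below their array medians. Over all genes, 16.3% had wild-type pericyte arrays all above wild-type endothelial ones, and 17.3% in knockout. The group means were 9.07 ± 0.36, 9.15 ± 0.10, 6.93 ± 0.11 and 6.90 ± 0.11 in the same order (SD, n = 4 each). The log2 difference between pericytes and endothelial cells was 2.14 in wild type (SE 0.13, 95% interval 1.86 to 2.42, 4.41-fold, limma adjusted p = 2.72e-10) and 2.25 in knockout (SE 0.13, 1.97 to 2.53, 4.76-fold, adjusted p = 1.39e-10).

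The other Ptgs2 probe, ILMN_2717913, showed the same direction with a smaller difference. It read 7.26, 7.39, 7.13 and 7.58 in wild-type and 7.34, 7.48, 7.30 and 7.16 in knockout pericytes, against 6.72 to 6.85 on the endothelial arrays. The groups did not overlap, although 2 of the 8 pericyte arrays, 7.13 and 7.16, lay below their medians. The log2 difference was 0.57 in wild type (SE 0.09) and 0.53 in knockout (SE 0.09), with limma adjusted p of 7.85e-05 and 1.56e-04 over all probes. In that fit 12.5% and 13.1% of probes passed the threshold as higher in pericytes. The deviations of both Ptgs2 probes from their group means had a Pearson r of 0.89 over the 16 arrays.

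Ptgs1 was near the floor in all 4 groups, and its arrays overlapped between them. Its first probe, ILMN_1239239, read 7.15, 6.86, 7.19 and 7.23 in wild-type pericytes and 7.02, 7.07, 7.56 and 6.90 in knockout pericytes. On the endothelial arrays it read 6.98, 6.96, 7.02 and 7.07 in wild type and 7.04, 6.92, 7.13 and 7.18 in knockout. Knockout pericyte array 3 stood above the others, and the probe exceeded its array median on 2 of the 16 arrays. The log2 difference between pericytes and endothelial cells was 0.10 in wild type (-0.15 to 0.35, limma adjusted p = 0.588) and 0.07 in knockout (-0.18 to 0.32, adjusted p = 0.721). The other probes had group means of 6.81 to 6.93 (ILMN_1233864) and 6.78 to 6.88 (ILMN_1224866) and exceeded no array median. At this signal a difference in Ptgs1 was not detectable, and the intervals bound it on the scale of the deposited values, which is compressed at the floor.

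**Figure D1:**
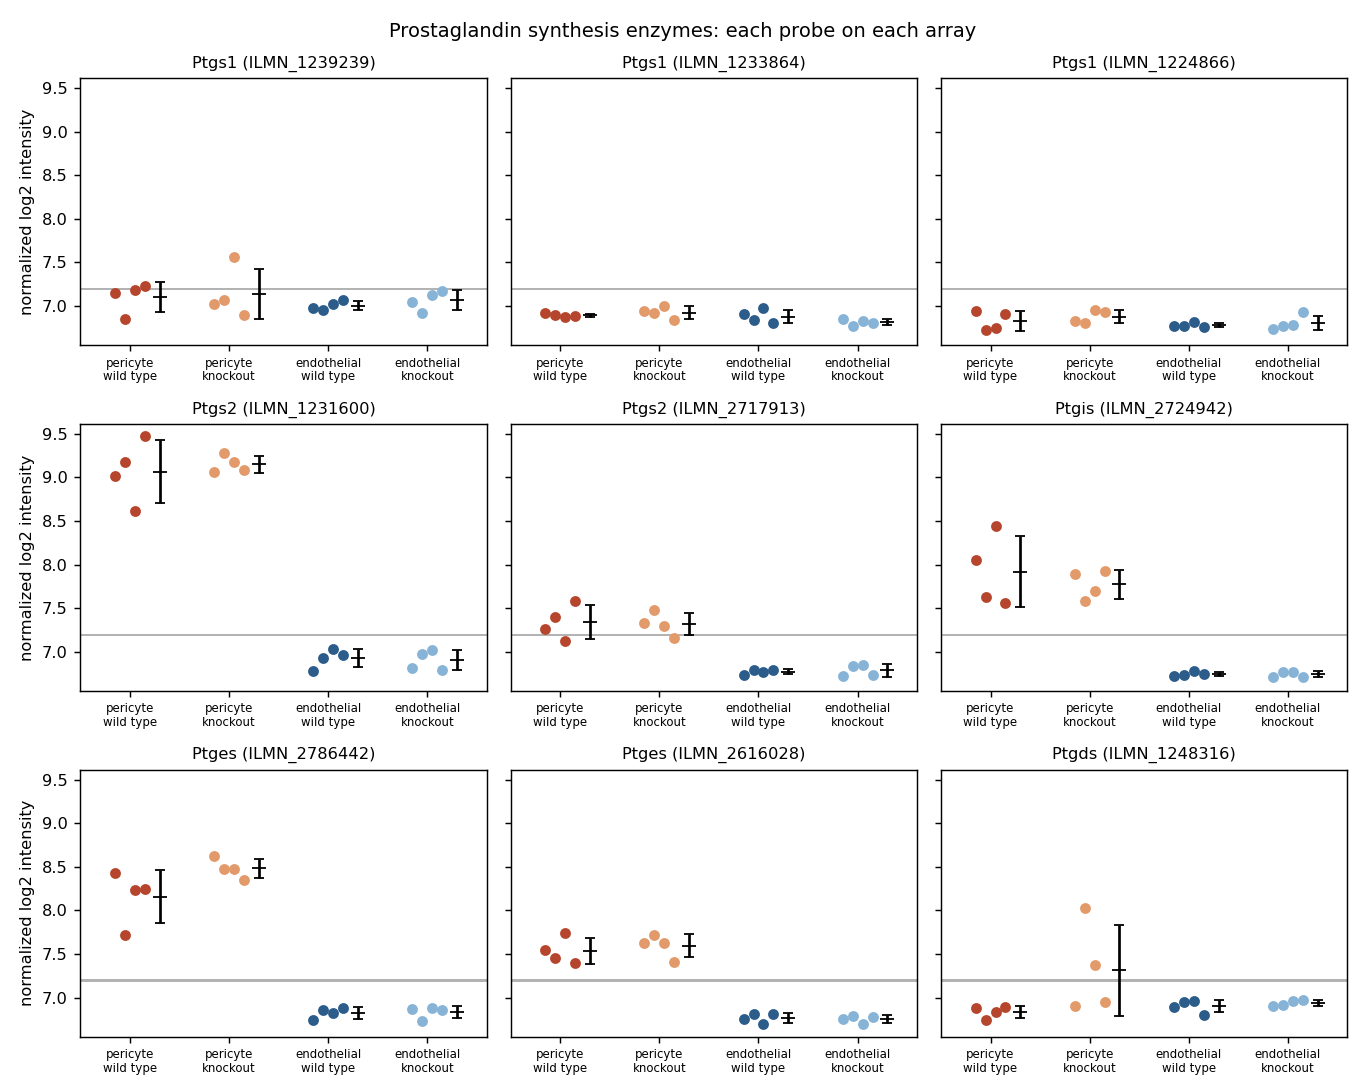
Normalized log2 intensity of each of the 9 probes on each of the 16 arrays, by group. Points are arrays 1 to 4 from left to right, the black mark and bar are the group mean ± SD (n = 4), and the grey lines are the array medians, 7.18 to 7.21. The Ptgs2, Ptges and Ptgis probes lie higher in pericytes than in endothelial cells, the 3 Ptgs1 probes do not part the groups, and Ptgds reaches 8.03 on 1 knockout pericyte array.

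Among the terminal synthases, Ptges and Ptgis were also higher in pericytes of both genotypes. Ptges, the prostaglandin E synthase, read 8.42, 7.72, 8.23 and 8.25 in wild-type and 8.63, 8.47, 8.47 and 8.35 in knockout pericytes on its probe with the higher mean, ILMN_2786442. Its endothelial values were 6.74, 6.85, 6.82 and 6.89 in wild type and 6.86, 6.73, 6.88 and 6.86 in knockout. Every pericyte array lay above every endothelial array, with wild-type pericyte array 2 the lowest of the 8. The means were 8.16 ± 0.31 and 8.48 ± 0.11 in wild-type and knockout pericytes and 6.82 ± 0.06 and 6.83 ± 0.07 in the endothelial groups (SD, n = 4 each). The log2 difference was 1.33 in wild type (SE 0.12, 1.09 to 1.58, 2.52-fold, limma adjusted p = 3.24e-08) and 1.65 in knockout (SE 0.12, 1.40 to 1.89, 3.14-fold, adjusted p = 1.74e-09).

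The other Ptges probe, ILMN_2616028, read 7.54, 7.46, 7.74 and 7.40 in wild-type and 7.63, 7.71, 7.63 and 7.41 in knockout pericytes, and 6.69 to 6.81 on the endothelial arrays. It too kept the cell types apart, with log2 differences of 0.77 in wild type (limma adjusted p = 7.24e-07 over all probes) and 0.84 in knockout (adjusted p = 2.35e-07). Both Ptges probes tracked each other less closely within groups than the Ptgs2 probes did, with a Pearson r of 0.32 between their deviations.

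Ptgis, the prostacyclin synthase, was read by 1 probe, ILMN_2724942. It gave 8.05, 7.63, 8.44 and 7.56 in wild-type pericytes and 7.89, 7.58, 7.70 and 7.93 in knockout pericytes. Endothelial values were 6.73, 6.74, 6.78 and 6.74 in wild type and 6.72, 6.77, 6.77 and 6.71 in knockout, all below the lower quartile of the arrays. The cell types did not overlap, and the wild-type pericyte arrays were spread over a wider range than the knockout ones. The means were 7.92 ± 0.41 and 7.77 ± 0.16 in wild-type and knockout pericytes and 6.75 ± 0.02 and 6.74 ± 0.03 in the endothelial groups (SD, n = 4 each). The log2 difference was 1.17 in wild type (SE 0.14, 0.87 to 1.47, 2.25-fold, limma adjusted p = 2.58e-06) and 1.03 in knockout (SE 0.14, 0.73 to 1.33, adjusted p = 1.21e-05).

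Ptgs2, Ptges and Ptgis passed the threshold as higher in pericytes in both genotypes, as 17.1% of all genes tested did in wild type, 17.4% in knockout and 14.2% in both. Because these 3 genes were tested only through their pericyte arrays, that count is not set against these shares, and the sizes of the differences are the measurement. The endothelial arrays lay near the floor for all 3 genes, so their folds are understated. In sorted bulk samples, fewer cells of a type and less RNA per cell cannot be told apart. Endothelial markers followed the labels, with 10 of 10 lower in wild-type pericytes (median log2 difference -2.35). Mural markers did so in part, with 6 of 10 pericyte and mural markers higher (median of the 10 1.26, Rgs5 3.20). Mcam, also a mural marker, was lower at -1.27. Kcnj8 (0.02), Abcc9 (0.27) and Acta2 (0.35), of the same list, did not pass.

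Markers of fibroblasts moved with the same comparison. All 9 tested of the 10 fibroblast markers were higher in pericytes in each genotype, with a median log2 difference of 3.69 in wild type and 3.50 in knockout. Each lay above the array median on fewer than 4 endothelial arrays, so the 9 were tested only through pericyte arrays. Over all genes 17.1% passed as higher in wild type and 17.4% in knockout, and the count is not set against these shares. The mean of the tested markers was 10.17 to 10.82 on the pericyte arrays and 6.82 to 6.99 on the endothelial arrays, and Dpep1 was not tested. The arrays cannot tell a pericyte transcript from a fibroblast one in this sorted population, and the part of these markers in the Ptgs2, Ptges and Ptgis differences was not tested. Keratinocyte and mast cell markers also varied among pericyte arrays, as given with Ptgds. With the mast cell marker mean as a covariate the wild-type differences were 2.10 for Ptgs2, 1.34 for Ptges and 1.21 for Ptgis, and all 3 passed. Of the 7 tested mast cell markers, 4 passed as higher in wild-type pericytes and 1, Kit, as lower (-1.62). Their mean therefore does not follow mast cells alone between cell types. Without knockout pericyte arrays 2 to 4, which leaves 1 knockout pericyte array, the knockout differences were 2.16 for Ptgs2, 1.79 for Ptges and 1.15 for Ptgis.

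Loss of endosialin was not followed by a detectable change of any of the 3 tested enzymes. In pericytes 0.317% of all genes passed the threshold, and none of these enzymes did. The knockout minus wild-type log2 difference of Ptgs2 in pericytes was 0.08 (SE 0.13, -0.20 to 0.36, limma adjusted p = 0.950). Ptgis gave -0.14 (SE 0.14, -0.44 to 0.16, adjusted p = 0.898). Ptges gave 0.33 (SE 0.12, 0.08 to 0.57, adjusted p = 0.525), and was the 1 of the 3 with an unadjusted p under 0.05, as 743 of the 10426 genes had. Without its lowest pericyte array, wild-type array 2 at 7.72, the difference was 0.18. The other Ptges probe gave 0.06 (-0.10 to 0.22, adjusted p = 0.930). Without knockout arrays 2 to 4, which leaves 1 knockout pericyte array assumed to vary like the others, the differences were -0.0028 for Ptgs2, -0.03 for Ptgis and 0.47 for Ptges, and none passed.

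In endothelial cells 0.00959% of genes passed and again none of the 3 enzymes, with log2 differences of -0.03 for Ptgs2 (-0.31 to 0.25), 0.01 for Ptges (-0.24 to 0.25) and -0.00 for Ptgis (-0.30 to 0.30). Their endothelial values all lay below the array medians, so a knockout effect there could go unseen. The intervals use a spread shared with the pericyte arrays. For Ptgis the SE was 0.14, while the endothelial SDs were 0.02 and 0.03. The difference between the knockout effects in pericytes and endothelial cells was 0.11 for Ptgs2 (-0.29 to 0.51), 0.32 for Ptges (-0.03 to 0.66) and -0.14 for Ptgis (-0.57 to 0.29). The limma adjusted p was 1.00 for each, 0 of the 3 had an unadjusted p under 0.05 in this contrast or in endothelial cells (390 and 387 of all genes had), and 0.0192% of genes passed. Leaving out single arrays changed the sign of several of these small differences and made none of them pass.

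**Figure D2:**
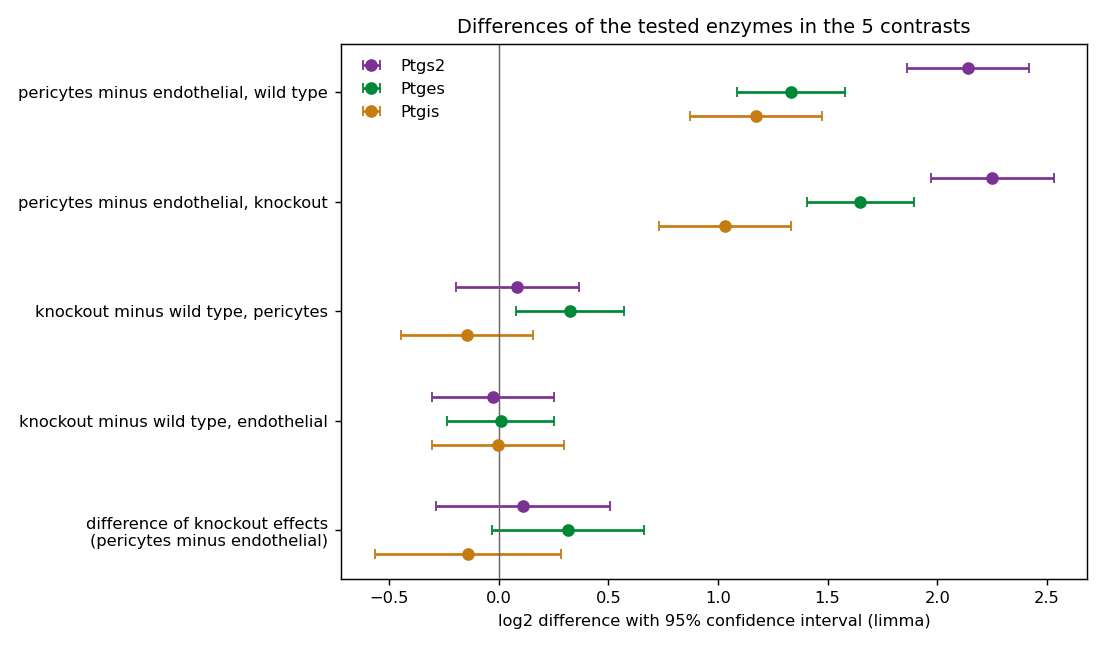
Log2 differences of Ptgs2, Ptges and Ptgis in the 5 contrasts, with 95% confidence intervals from the limma fit to all 16 arrays. Both cell type contrasts lie clear of 0 for each gene, from 1.03 to 2.25. Of the knockout contrasts, the interval of Ptges in pericytes (0.08 to 0.57) is the one that leaves out 0, with an adjusted p of 0.525.

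Among the pericyte arrays, Ptgs2 and Ptgis varied in opposite directions. Wild-type array 3 had the lowest Ptgs2 (8.61) and the highest Ptgis (8.44), and wild-type array 4 had the highest Ptgs2 (9.47) and the lowest Ptgis (7.56). Within the knockout arrays, array 2 had the highest Ptgs2 (9.28) with the lowest Ptgis (7.58). Over the deviations of the 8 pericyte arrays from their genotype means, Pearson's r was -0.95 and Spearman's rho was -0.90. Without wild-type arrays 3 and 4, the 2 farthest from the median, r was -0.96. The pattern was noticed in these 8 arrays, so it is a description of them and carries no test.

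The other Ptgs2 probe gave an r of -0.82 with Ptgis over the deviations of all 16 arrays. Of the other pairs, Ptgs2 and Ptges had an r of -0.18, and Ptgis and Ptges one of 0.39, over the deviations of the pericyte arrays. Marker means varied over the same arrays. The pericyte and mural mean was 9.84 on wild-type array 4 and 8.68 on wild-type array 3, and the fibroblast mean was 10.17 and 10.74 on these arrays. Of the endothelial markers, Esam (SD 0.80) and Emcn (SD 0.47) varied most on wild-type pericyte arrays, with SDs of at most 0.13 for the others. As a description over the 8 pericyte arrays, Ptgs2 deviations had an r of 0.57 with the mural mean, 0.69 with the endothelial mean and -0.64 with the fibroblast mean. Ptgis deviations had an r of -0.30, -0.48 and 0.43 with the same means. The part of these markers in the Ptgs2 and Ptgis values was not tested.

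**Figure D3:**
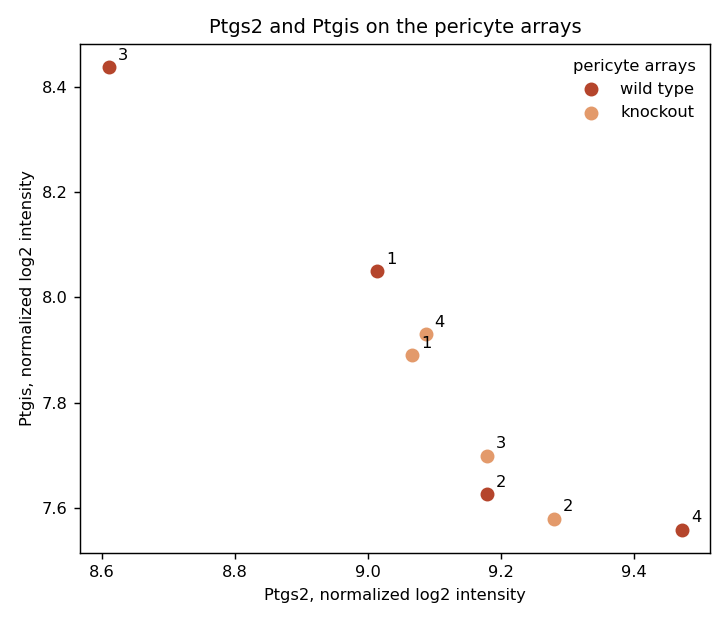
Normalized log2 intensity of Ptgs2 (ILMN_1231600, horizontal axis) and Ptgis (ILMN_2724942, vertical axis) on the 8 pericyte arrays, with numbers giving the replicate and colours the genotype. The arrays run from high Ptgis and low Ptgs2 (wild-type array 3, 8.44 and 8.61) to low Ptgis and high Ptgs2 (wild-type array 4, 7.56 and 9.47). Axes do not start at 0.

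Ptgds differed from the other synthases, since its single probe, ILMN_1248316, rose above its array median on only 2 arrays, both of knockout pericytes. Knockout pericyte arrays read 6.90, 8.03, 7.37 and 6.95 and wild-type pericyte arrays 6.88, 6.74, 6.83 and 6.89. Endothelial arrays read 6.89, 6.95, 6.96 and 6.80 in wild type and 6.91, 6.92, 6.96 and 6.97 in knockout. Every knockout pericyte array lay above every wild-type one, by little for arrays 1 and 4 and clearly for arrays 2 and 3. Over all probes, 1.59% had knockout pericyte arrays all above wild-type ones. The means in pericytes were 7.31 ± 0.52 in knockout and 6.83 ± 0.07 in wild type (SD, n = 4 each).

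The knockout minus wild-type log2 difference of Ptgds was 0.48 in pericytes (SE 0.17, 0.12 to 0.83, limma adjusted p = 0.449 over all probes) and 0.04 in endothelial cells (-0.32 to 0.40). Of all probes, 0.0666% passed in pericytes. The pericyte value was 0.24 without knockout array 2. Pericytes minus endothelial cells gave -0.06 in wild type (-0.42 to 0.29) and 0.37 in knockout (0.01 to 0.73, adjusted p = 0.121). The knockout value was 0.13 without knockout array 2 and -0.04 without knockout arrays 2 to 4.

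Knockout pericyte arrays 2, 3 and 4 also stood apart in markers of keratinocytes, the cells of the epidermis. The mean of the 10 tested of 12 keratinocyte markers was 10.02, 9.93 and 9.55 on these arrays, 7.53 on knockout array 1, 6.84 to 7.86 on wild-type pericyte arrays and 6.81 to 6.90 on endothelial arrays. Of these markers 9 of 10 passed as higher in knockout than in wild-type pericytes (median log2 difference 1.90). Krt6a and Trp63 were not tested. The mean of the 7 tested mast cell markers was 8.94, 9.74 and 8.85 on knockout pericyte arrays 2 to 4 and 7.10 on array 1. It was 6.95, 7.68, 9.42 and 10.07 on wild-type pericyte arrays, and 0 of the 7 passed between genotypes by limma, at an adjusted or an unadjusted p under 0.05. Ptgds was 6.83 and 6.89 on wild-type arrays 3 and 4, which were high in mast cell markers. S100a9, the tested neutrophil marker, was also high on knockout arrays 2 to 4, at 9.10, 8.88 and 9.65, against 6.75 to 7.29 on the other pericyte arrays. The mean of the 2 tested T cell markers was 8.34 and 8.26 on knockout arrays 2 and 3, where Ptgds was high, 7.87 on knockout array 4 and 7.63 on array 1. It was 7.42 to 8.12 on wild-type pericyte arrays and 6.91 to 6.99 on endothelial arrays. The 2 markers went opposite ways between genotypes in pericytes, Cd3e by 0.59 and Cd2 by -0.15, and neither passed. Over the pericyte arrays Cd3e ranged from 7.70 to 9.69 and Cd2 from 6.92 to 7.37. Ptgds deviations over the 8 pericyte arrays had an r of 0.64 with the T cell mean and 0.61 with the keratinocyte mean. Without knockout arrays 2 to 4 the Ptgds difference in pericytes was 0.07, and without these and wild-type arrays 3 and 4 it was 0.09. The part of these cell types in the Ptgds values was not tested.

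**Figure D4:**
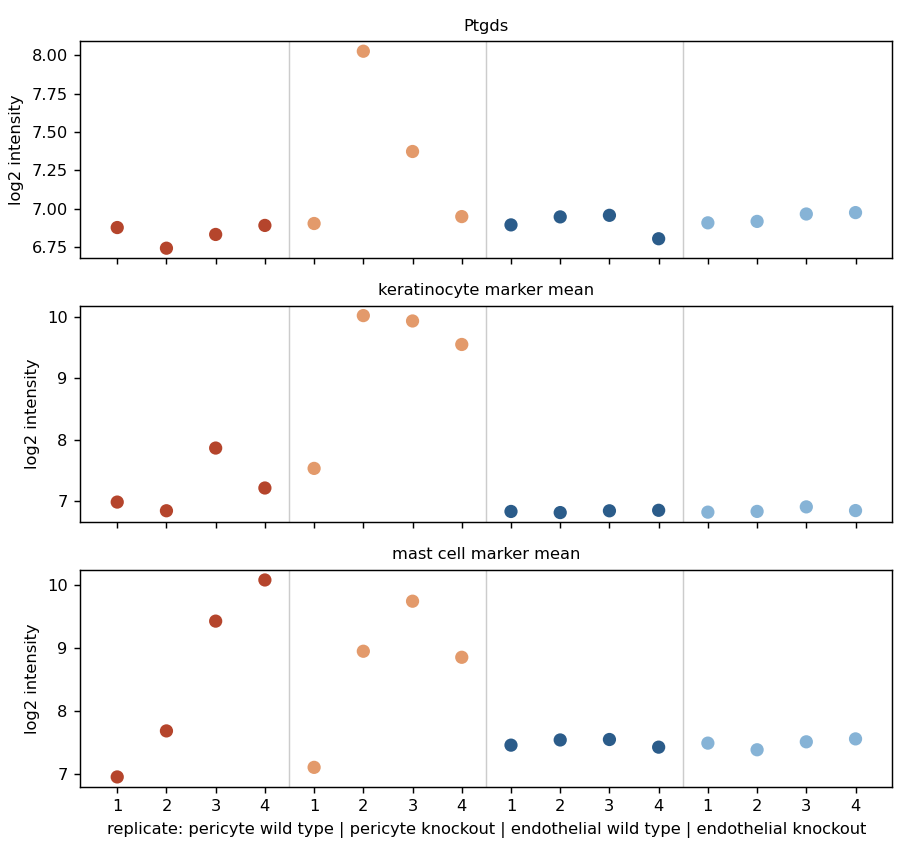
Normalized log2 intensity of Ptgds (top), the mean of the tested keratinocyte markers (middle) and the mean of the tested mast cell markers (bottom) on each of the 16 arrays, in the order of group and replicate. Ptgds is highest on knockout pericyte array 2 (8.03), where the keratinocyte mean is 10.02, while knockout array 4, with a keratinocyte mean of 9.55, has Ptgds at 6.95. The vertical axes differ and do not start at 0.

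The tested genes most like each enzyme by Pearson's r over the 16 arrays, a measure dominated by the difference between cell types, were as follows. Ptgs2 was closest to Mmp13, a collagenase, at 0.991, followed by Lhfp, Trrp1, Inhba, a subunit of activins, and Kcne4, a potassium channel subunit, at 0.988. Ptges was closest to Tbx15, a T-box transcription factor, at 0.985, followed by Atg7, Bnc2, Ror2, a Wnt5a receptor, and Pxylp1 at 0.982. Ptgis was closest to Srpx at 0.985, followed by Adam23, Fzd1, a Wnt receptor, Timp1, an inhibitor of matrix metalloproteinases, and Cped1 at 0.978. Ptgds had no match of this kind, with Apoe, a lipid carrier, at 0.887 and then Sfn, Trim29, Bnipl and S100a14, of which Sfn is in the keratinocyte list. The best for Ptgs1 was Zdhhc13 at 0.75, followed by Rap2b, Krt79, Gp49a and Ppp2r5e.

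After group means had been taken out, the order changed. Ptgis was then closest to D230039L06Rik at 0.976, followed by Tulp1, Srpx (0.916), Ext1 and Fzd1, so Srpx and Fzd1 were among the 5 nearest by both measures. Ptgs2 was then closest to Gcap27 at 0.879, followed by Hnrnpd, Ddx3x, Gtpbp1 and Atp1b2. Ptges was closest to Slco3a1 at 0.901, with Ei24, Ccnd2 and Actn1 also among its nearest. Ptgds was closest to Il1rn, an interleukin-1 receptor antagonist, at 0.862, followed by Slc24a5, Gpnmb, Megf9 and Polr3g. Ptgs1 was closest to Cdca7 at 0.848, followed by Lss, Pa2g4, Mfsd6 and Scamp1. These are the best of 10426 genes over 16 arrays and carry no test.

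The pathway around the enzymes was described from lists of phospholipases, other prostanoid synthases, breakdown and transport, receptors and the lipoxygenase branch, of which 34 genes were on the array and 15 were tested. By limma 0 of the 15 passed between genotypes in either cell type or in the difference of effects. At an unadjusted p under 0.05 the count was 1 in pericytes, 0 in endothelial cells and 1 for the difference of effects, and both times the gene was Ptgir, while 743, 387 and 390 of the 10426 genes had such a p. The fit without knockout pericyte arrays 2 to 4 leaves 1 knockout pericyte array, so only differences from it are given below. Upstream, 2 of 6 tested phospholipase genes were higher in pericytes in both genotypes. Over all genes 14.2% were, and the count is not set against that share, since the direction of Pla2g4a was built into its selection. Pla2g4a, the cytosolic phospholipase A2 that supplies arachidonic acid to the cyclooxygenases, had means of 7.48 ± 0.09 and 7.51 ± 0.04 in wild-type and knockout pericytes and 6.73 ± 0.05 and 6.76 ± 0.02 in endothelial cells (SD, n = 4 each). Its log2 difference was 0.75 in wild type (limma adjusted p = 5.82e-08) and 0.76 in knockout. Its endothelial arrays all lay below the array medians, so Pla2g4a was tested only through pericyte arrays. Pla2g15, a lysosomal phospholipase, was higher by 0.73 and 0.63, the latter 1.07 without knockout arrays 2 to 4.

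Mgll, a monoacylglycerol lipase that yields arachidonic acid from an endocannabinoid, went the other way. It read 6.78 to 6.81 in wild-type and 6.86 to 7.02 in knockout pericytes, against 8.71 to 8.89 and 8.77 to 9.01 in endothelial cells. Its log2 difference was -1.99 in wild type (SE 0.08, limma adjusted p = 5.29e-13) and -1.93 in knockout. Its pericyte arrays all lay below the array medians, so Mgll was tested only through endothelial arrays. Over all genes 19.1% passed as lower in pericytes in wild type and 18.5% in knockout. Pla2g12a was lower in wild type alone by the threshold (-0.49, adjusted p = 0.00227), with -0.25 in knockout (adjusted p = 0.102), and the difference of the 2 effects did not pass. Fewer than 4 of its pericyte arrays lay above their medians, so Pla2g12a too was tested only through endothelial arrays. The median of the 6 was -0.25 in each genotype, against -0.03 and -0.04 over all genes.

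Among other prostanoid synthases, 1 of 4 tested genes passed as higher in pericytes in wild type and 2 of 4 in knockout. Over all genes the shares were 17.1% and 17.4%. The counts are not set against these shares, since Cbr3 was tested only through pericyte arrays. It lay above the array median on fewer than 4 endothelial arrays. Cbr3, a carbonyl reductase, gave 0.31 in wild type (limma adjusted p = 0.0259) and 0.56 in knockout. Akr1b3, an aldose reductase with prostaglandin F synthase activity, gave 0.11 in wild type (adjusted p = 0.391) and 0.26 in knockout (adjusted p = 0.0356). The latter was 0.25 without knockout arrays 2 to 4. Ptges3, the cytosolic prostaglandin E synthase, gave -0.06 and 0.03, with neither past the threshold. The haematopoietic prostaglandin D synthase, annotated as Ptgds2, and the thromboxane synthase Tbxas1 were too dim to be tested, with arrays between 6.77 and 7.13.

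Downstream, all 3 tested genes of the receptor list were higher in pericytes in both genotypes. Their endothelial arrays all lay below the array medians, so this direction was built into their selection. Over all genes 14.2% passed as higher in both genotypes, and the count is not set against that share. Ptgir, the prostacyclin receptor, read 8.64, 8.74, 8.66 and 8.86 in wild-type and 8.61, 8.16, 8.51 and 8.55 in knockout pericytes. On endothelial arrays it read 6.84, 6.89, 6.88 and 6.90 in wild type and 6.91, 7.15, 7.11 and 6.82 in knockout, so that the cell types were far apart. The log2 difference was 1.85 in wild type (SE 0.10, limma adjusted p = 5.03e-11) and 1.46 in knockout (SE 0.10, adjusted p = 1.33e-09). All knockout pericyte arrays lay below the wild-type ones, as for 1.63% of genes, and the difference of -0.26 did not pass (adjusted p = 0.564). The prostacyclin synthase Ptgis and the prostacyclin receptor Ptgir were both higher in the pericyte samples, and both were tested only through pericyte arrays.

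Ptger3, a prostaglandin E2 receptor, was higher in pericytes by 0.63 in wild type (limma adjusted p = 0.00201) and 0.86 in knockout. Ptgfrn, a protein that binds the prostaglandin F receptor and lowers its ligand binding, was higher by 0.74 and 0.79. The other 3 receptors on the array, Ptger2, Ptgfr and Ptgdr, were not tested. Slco2a1, the transporter that takes up prostaglandins, was higher by 0.84 in wild type (adjusted p = 4.90e-04) and 0.91 in knockout, the latter 0.70 without knockout arrays 2 to 4. Fewer than 4 of its endothelial arrays lay above their medians, so Slco2a1 was tested only through pericyte arrays. It read 8.17, 8.30, 8.21 and 7.35 in wild-type pericytes, and the lowest of these lay within the endothelial range of 7.01 to 7.43. Hpgd, which inactivates prostaglandins, was not tested and read 7.02 to 7.49 in pericytes and 6.66 to 6.77 in endothelial cells. None of the 5 lipoxygenase branch genes on the array was tested.

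**Figure D5:**
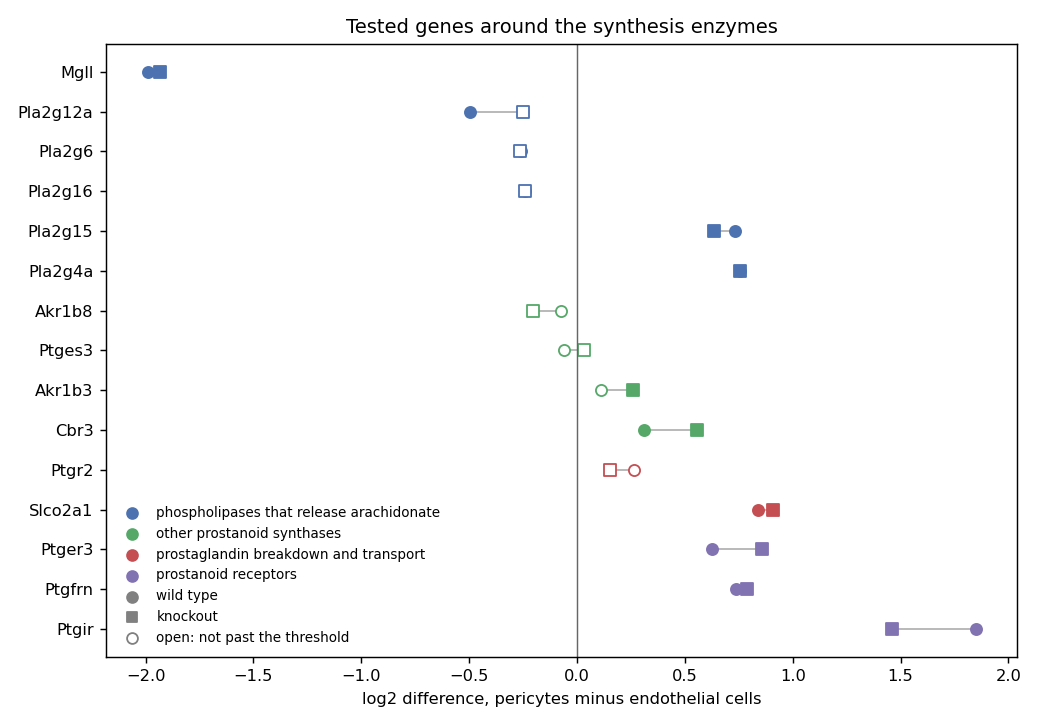
Log2 difference between pericytes and endothelial cells for the 15 tested pathway genes, with circles for wild type, squares for knockout and colours for the lists. Filled marks passed the limma threshold of 0.05 and open marks did not. Ptgir is the highest (1.85 and 1.46) and Mgll the lowest (-1.99 and -1.93).

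A list of regulators and partners commonly named with Ptgs2 had 18 tested genes. In wild type 9 were higher in pericytes and 1 lower, and in knockout 10 were higher and 1 lower. Over all genes 17.1% passed as higher and 19.1% as lower in wild type, and 17.4% and 18.5% in knockout. The list was chosen with earlier results known, and Cebpb and Nr4a1 were tested only through pericyte arrays. Each of these genes lay above the array median on fewer than 4 endothelial arrays. The counts and the median of the list are therefore descriptions and carry no test. Cebpb, a C/EBP transcription factor, had a log2 difference of 1.44 in wild type (limma adjusted p = 2.76e-09) and 1.47 in knockout. Il1r1, the interleukin-1 receptor, gave 2.30 and 2.05, and Il6 gave 1.75 and 1.72. Cav1, encoding caveolin of endothelial caveolae, was the lower one at -2.23 and -2.15. The median over the 18 was 0.47 in wild type and 0.62 in knockout, against -0.03 and -0.04 over all genes. Of the immediate early genes in the list, which many cells switch on within minutes of a stimulus, Fos, Jun, Egr1 and Nr4a1 were higher in pericytes in both genotypes, and Zfp36 had 0.38 in wild type (adjusted p = 0.0815) and 0.35 in knockout (adjusted p = 0.106). Without knockout pericyte arrays 2 to 4, which leaves 1 knockout pericyte array, the knockout difference of Egr1 was 0.53, against 0.70 over all arrays. Rela, an NF-kappaB subunit, gave -0.59 in that fit and -0.24 over all arrays, with -0.01 in wild type. Nfkb1 was not tested in that fit. By limma 0 of the 18 passed between genotypes, and 3 in pericytes, 1 in endothelial cells and 0 for the difference of effects had an unadjusted p under 0.05, against the 743, 387 and 390 over all genes.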

How the data were processed

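Transcripts had been measured on 16 arrays, 4 in each of 4 groups, from RNA amplified with the Ovation Pico WTA System and hybridised as 1.6 µg of labelled cRNA, per the labels. The authors deposited normalized probe intensities on a log2 scale, and the submitters' processing notes name GenomeStudio and lumi. Versions, background correction, transform and probe filter were not given in the sources used here, and the values were used as deposited. The repository's value table differed from the authors' table by at most 5.00e-09. There were 0 columns of other samples. No detection p-values, chips or dates are given, so no batch could be tested, and the number of arrays limits the precision.

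Probes above the array median on at least 4 of 16 arrays were kept (14632). A gene with several kept probes, as 2904 had, was represented by the one with the highest mean, giving 10426 genes. All probes were also fitted without a filter. A group-means model was fitted with limma 3.58.1 in R 4.3.3 (12 residual and 5.585 prior degrees of freedom), two-sided, with 5 contrasts and Benjamini-Hochberg adjustment at 0.05. The script was tested on simulated data. The members, pathway lists, marker lists and the rule for named genes (all member probes, pathway genes past the threshold and a few others by level, and the 5 tested genes most like each member) were chosen with earlier results of these data known. One gene that this rule would name is not reported here. Replicate numbers were not taken to pair samples: of 24 same-numbered array pairs, 9 had deviations from group means correlated above 0.1, with r from -0.18 to 0.45 and a median of 0.08, against 9 of 72 pairs with other numbers, with a median of 0.00. The rule set here asked for every same-numbered pair above 0.1, over all groups. Pericyte and endothelial arrays of the same number and genotype had r of 0.43, 0.12, 0.09 and 0.04 in wild type. In knockout the values were 0.22, 0.19, 0.17 and 0.03. The labels do not say whether such pairs share a tumour, and the cell type tests treat these arrays as independent. The replicate block below joins all 4 groups of a number, and a block within genotype was not run. Promoter sequences are from RefSeq on GRCm38.p6. The array files name no genome build.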

Additional observations from a re-analysis of the deposited data

Results flagged for a closer look

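Of 96 groups of 4 arrays, 6 held 1 array far from the other 3 by Dixon's test at 95%, and chance alone marks about 5% of groups. For Ptges (ILMN_2786442), knockout endothelial array 2 read 6.73 against 6.86 to 6.88. For Pla2g6, wild-type pericyte array 2 read 7.72 against 6.90 to 6.99. For Pla2g16, the same array read 7.44 against 7.68 to 7.71. For Pla2g15, knockout endothelial array 4 read 7.52 against 7.12 to 7.16. For Akr1b8, wild-type endothelial array 1 read 8.12 against 8.00 on the others. For Slco2a1, wild-type pericyte array 4 read 7.35 against 8.17 to 8.30.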

How the results depend on the processing

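In no alternative that gave a value did Ptgs2, Ptges or Ptgis lose its call as higher in pericytes, in either genotype. Under the stricter filter, above the median on at least 12 of 16 arrays, the enzymes are not tested, nor without the 5 pericyte arrays of high mast cell mean, which leaves 3 pericyte arrays and so fewer than the filter asks for. None passed a knockout contrast in any alternative run. With the replicate block, adjusted p was 3.84e-09 for Ptgs2 between cell types in wild type and 0.396 for Ptges between genotypes in pericytes, the block changed no call, and the count of pericyte knockout calls was 40.

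With 1 array left out, log2 differences between cell types in wild type ranged from 2.01 to 2.29 for Ptgs2, 1.24 to 1.48 for Ptges and 1.00 to 1.29 for Ptgis, and in knockout from 2.21 to 2.29, 1.60 to 1.69 and 0.98 to 1.10. Knockout minus wild type in pericytes ranged from -0.0684 to 0.22, 0.18 to 0.41 and -0.26 to 0.0301, in endothelial cells from -0.0745 to 0.0106, -0.0196 to 0.0439 and -0.0123 to 0.0077, and the difference of effects from -0.0427 to 0.24, 0.17 to 0.41 and -0.26 to 0.033. Counts of genes past the threshold ranged from 4 (without knockout pericyte array 2) to 129 (without knockout pericyte array 1) in pericytes, 1 to 2 in endothelial cells, 1 to 52 for the difference of effects, 3374 to 3790 between cell types in wild type and 3299 to 3899 in knockout.

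Signs turned for small differences. With the macrophage covariate, which was the 1 tested marker Lyz, knockout minus wild type in endothelial cells was 0.0159 for Ptgs2, -0.0358 for Ptges and 0.0235 for Ptgis. Lyz itself differed between genotypes by -0.395 in pericytes and -0.41 in endothelial cells, with neither past the threshold, so this covariate varied with genotype. Without knockout pericyte arrays 2 to 4, Ptgs2 in pericytes was -0.0028. The cause of the sign changes was not tested.

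Counts over all genes moved more. The pericyte knockout count of 33 became 96 with array weights, 54 with the mast cell covariate, 16 with a trended robust variance, 15 with the macrophage covariate, 14 with no filter and 2 with the stricter filter. It was 1 with the keratinocyte covariate, with the endothelial covariate on pericyte arrays, with only both pericyte groups, without the 3 arrays of high keratinocyte mean, and without the 5 of high mast cell mean. The endothelial count of 1 became 2 with array weights or every kept probe. The count of 2 for the difference of effects became 10 with array weights, 8 with the mast cell covariate, 0 with the stricter filter (fewer genes tested), and 1 with the keratinocyte covariate, no filter, or without those 3 or 5 arrays. The cell type count in wild type (3772) became 1963 with the stricter filter and 2348 without the 5 arrays, and in knockout (3743) it became 1988 with the keratinocyte covariate, 1822 with the stricter filter, and 2163 and 1570 without the 3 and the 5 arrays. The alternatives that leave out these 3 and 5 arrays, for the enzymes and for the pathway genes, were chosen after seeing the data. Signal near the floor limits Ptgs1, Ptgds and all endothelial values of the enzymes.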
